A study of Mus musculus with 50 samples.

Results

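Chromatin accessibility at 10 genes that encode the Shank, Homer and SAPAP scaffold proteins of the excitatory synapse was described in neuronal nuclei of mice from 5 rearing facilities (RFs). The genes were Shank1, Shank2, Shank3, Homer1, Homer2, Homer3 and the 4 SAPAP genes, Dlgap1 to Dlgap4. A peak of the merged peak table was a member when it overlapped the span of one of these genes or lay within 2 kb of it (mouse build GRCm38), which gave 424 of 144465 peaks. Dlgap1 held 146 of them, Dlgap2 117, Shank2 60, Dlgap4 28, Homer1 23, Homer2 17, Dlgap3 14, Shank3 9, Shank1 8 and Homer3 2. By family there were 77 Shank, 42 Homer and 305 SAPAP peaks. A Homer3 peak also lay within 2 kb of Ddx49 and a Shank1 peak within 2 kb of 1700008O03Rik, and these 2 peaks cannot be given to a single gene. ATAC-seq, in which a transposase cuts accessible DNA and leaves sequencing adapters there, was run on nuclei sorted for the neuronal protein NeuN. The tissue was the ventral hippocampus, and the mice were males of the strain C57BL/6JRj. Each of the 50 libraries came from 1 mouse, with 5 libraries for each RF at each of 2 time points (TPs). Mice of TP1 were 8 weeks old and were killed in their RF. Mice of TP2 were 14 weeks old by the labels and were killed in a common test laboratory to which all RFs had sent their mice. Both groups were untested in behaviour, and all brains were frozen in hexane. RF1 and RF2 kept a normal light cycle with Altromin food, RF4 a reversed light cycle with Altromin food, and RF3 and RF5 a reversed light cycle with Kliba food. The comparisons address how far neuronal chromatin at these genes differed between RFs, and whether these differences were the same before and after the move. At TP1 the RF was also the place of killing and tissue collection, so that rearing and collection cannot be told apart there.

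Shank, Homer and SAPAP proteins form the layer of the postsynaptic density that lies beneath glutamate receptors. SAPAP proteins bind PSD-95 on the receptor side and the PDZ domain of Shank on the inner side, Shank proteins reach on towards the actin cytoskeleton, and Homer proteins bind Shank, group I metabotropic glutamate receptors and the IP3 receptors of internal calcium stores. Homer1 also makes a short form, Homer1a, which is an immediate early gene product induced by neuronal activity and which lacks the coiled coil through which the long forms join. In ATAC-seq, both promoters in use and enhancers, many of which lie in introns, give peaks of accessibility.

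The promoter letters are shown because the Homer1 promoter had the widest fitted range between RFs at TP1 among the members' peaks at a start or gene end. RefSeq (GRCm38.p6) gave 10 transcription starts in 7 of the 10 genes, and starts of Shank1, Shank2 and Dlgap2 were not analysed here. The 250 bases before a start are given 5′ to 3′ on the gene's strand. Homer1 (plus strand) is chr13:93303507-93303756, Homer2 (minus strand) is chr7:81706926-81707175, Shank3 (plus strand) is chr15:89499358-89499607 and Dlgap4 (plus strand, the start of a shorter transcript inside the gene) is chr2:156720715-156720964. Capitals mark TGACG or CGTCA, the core of the cAMP response element, in Homer1 and GGGCGG or CCGCCC, the GC box, in the other 3.
Homer1: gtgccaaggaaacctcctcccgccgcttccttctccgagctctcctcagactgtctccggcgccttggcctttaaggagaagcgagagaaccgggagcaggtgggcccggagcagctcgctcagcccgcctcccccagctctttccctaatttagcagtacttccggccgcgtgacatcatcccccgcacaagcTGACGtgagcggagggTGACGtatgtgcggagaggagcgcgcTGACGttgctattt
Homer2: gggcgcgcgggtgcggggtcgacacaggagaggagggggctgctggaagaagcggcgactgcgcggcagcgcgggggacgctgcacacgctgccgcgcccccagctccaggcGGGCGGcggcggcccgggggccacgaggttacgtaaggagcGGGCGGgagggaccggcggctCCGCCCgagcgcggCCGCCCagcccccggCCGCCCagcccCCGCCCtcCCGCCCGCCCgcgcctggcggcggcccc
Shank3: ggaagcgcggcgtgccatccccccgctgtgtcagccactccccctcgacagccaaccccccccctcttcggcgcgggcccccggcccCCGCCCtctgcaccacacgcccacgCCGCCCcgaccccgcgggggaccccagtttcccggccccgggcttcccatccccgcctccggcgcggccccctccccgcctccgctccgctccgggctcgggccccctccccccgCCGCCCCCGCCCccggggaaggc
Dlgap4: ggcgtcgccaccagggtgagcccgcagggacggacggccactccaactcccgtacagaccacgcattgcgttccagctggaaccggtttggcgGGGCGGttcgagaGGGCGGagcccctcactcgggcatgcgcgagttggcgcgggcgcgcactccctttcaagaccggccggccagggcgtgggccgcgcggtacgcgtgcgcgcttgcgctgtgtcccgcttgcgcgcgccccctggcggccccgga
The Homer1 stretch held TGACG on either strand 3 times, at 56, 40 and 14 bases before the start. None of the other 9 member starts held it, whereas 17.8% of all 32851 promoters in the table did, and 226 of them (0.688%) held it at least 3 times. The GC box occurred 8 times at Homer2, 4 times at Shank3, 4 times at Homer3 and 2 times at Dlgap4, and 32.7% of all promoters held it at least once. Homer1 had no GC box, and its stretch had a GC content of 62.4% against 83.2% at Homer2, 82.4% at Shank3 and 74% at Dlgap4 and a median of 52.4% over all promoters. In all, 6 motifs were counted on both strands. The full cAMP response element TGACGTCA, which contains TGACG, was in no member start and in 1.55% of all promoters. The AP-1 motif TGANTCA was in no member start either and in 6.75% of all promoters. The E-box CACGTG (6.02% of all promoters) was in a second, inner start of Dlgap1. The TATA motif TATAAA (12.4%) was in a second start of Homer2. A match describes letters and not binding.

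The libraries held 33663505 to 77396321 counts in peaks at TP1 (median 44453692) and 5111223 to 36401717 at TP2 (median 26030443), so that weak peaks were measured less precisely at TP2. At TP1 the RF1 libraries were the least alike, with a variance between pairs of 2.86 to 23.5 times that expected from sampling. Within the other RFs of TP1 it was 0.965 to 3.65 times, and the fit shared its estimate of spread over all RFs. At TP1 the most similar library of each library came from its own RF (25 of 25). At TP2 this held for 22 of 25, and RF1 replicate 3, RF1 replicate 5 and RF2 replicate 5 stood apart from their own RF. RF1 replicate 3 agreed within sampling noise with RF2 replicates 1, 2, 3 and 4. RF1 replicate 5 and RF2 replicate 5 agreed within sampling noise with RF5 replicate 3 and with each other. Whether the RF labels of these 3 libraries are right was not tested. Several counts at TP2 are therefore given with and without these 3 libraries. Other values at TP2 rest on all libraries unless stated. All 8 neuronal marker genes carried a promoter or gene-end peak, with 2.29 to 21.1 CPM per kb of peak (CPM are counts scaled to equal library sizes), against 1.91 to 4.14 CPM per kb at 12 of 16 glial and endothelial markers. No peak was found there at Cx3cr1, Mog, Pecam1 and Flt1. The replicate number stood for the batch of nuclei sorting, although the labels do not say that it is the batch. Amplification and sequencing were done in 1 batch per TP, so that TP and batch cannot be told apart. In bulk nuclei, fewer nuclei of a type and less accessibility per nucleus cannot be told apart either.

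The member peaks ranged from 147 to 7553 bases in width. Their median width was 1770 bases against 1505 over all peaks, and their median level was 3.41 CPM per kb against 2.71. Peaks present in all 10 groups of RF and TP made up 37.5% of member peaks (159) and 37.9% of all peaks. Peaks of a single group made up 19.1% (81) and 16.3%. Of the 424 peaks, 409 lay in gene bodies. The strongest peak per kb was the Homer1 promoter, chr13:93303191-93304694, at 43.2 CPM per kb. It was followed by the Dlgap4 start inside the gene (28.9 CPM per kb) and by the peak at the higher-coordinate end of Shank1 (27.8 CPM per kb). The other 22 Homer1 peaks lay between 1.61 and 3.24 CPM per kb, so that nearly all of the strong accessibility of this gene sat at its start. Dlgap1 and Dlgap2, which span 852 and 758 kb, held many peaks of low height, with a median of 4.86 and 5.32 CPM per peak against 31.6 CPM in Shank1.

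Accessibility depended on the RF at most Shank peaks at both TPs. In edgeR's quasi-likelihood test a peak was taken to depend on the RF at a false discovery rate (FDR) below 0.01, adjusted over all peaks tested, and all 424 member peaks passed the filter on low counts at both TPs. At TP1, 227 of the 424 (53.5%) depended on the RF, below the 59.1% of all peaks. At TP2, 109 did (25.7%), against 30.8% of all peaks, and without the 3 libraries that stood apart 175 did (41.3% against 49.5%). Peaks that depended on the RF at both TPs numbered 94, against a background of 25.9%. By family, 65 of 77 Shank peaks (84.4%) were called at TP1 and 46 (59.7%) at TP2. Of the 42 Homer peaks 24 and 10 were called, and of the 305 SAPAP peaks 138 and 53. Without the 3 libraries that stood apart the counts at TP2 were 54 Shank, 18 Homer and 103 SAPAP peaks. The 81 peaks of a single group were listed because of that group, and among the 159 member peaks of all 10 groups 118 (74.2%, against 77.2% of all such peaks) depended on the RF at TP1 and 56 (35.2% against 48.6%) at TP2. The differences between the families were not tested. A differentially accessible region (DAR) was a peak with an FDR below 0.01 and a log2 fold change of 0.5 or more in size for at least 1 pair of RFs, and there were 82 at TP1 (19.3%, against 38.6% of all peaks) and 49 at TP2 (11.6%, against 21%, and 97 without the 3 libraries that stood apart). Shank2 held 27 of these at TP1 and 23 at TP2. The mean deviation of each 1 Mb region was also taken out of every library. That mean includes the gene's own peaks, so in regions that a gene fills it brings the gene towards 0 by construction. With it taken out, 13 member peaks were called at TP2 (3.07% against 9.16% of all peaks), and there were 28 DARs at TP1 and 5 at TP2. Of the 77 Shank peaks 41 were then called at TP1 and 5 at TP2.

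**Figure D1:**
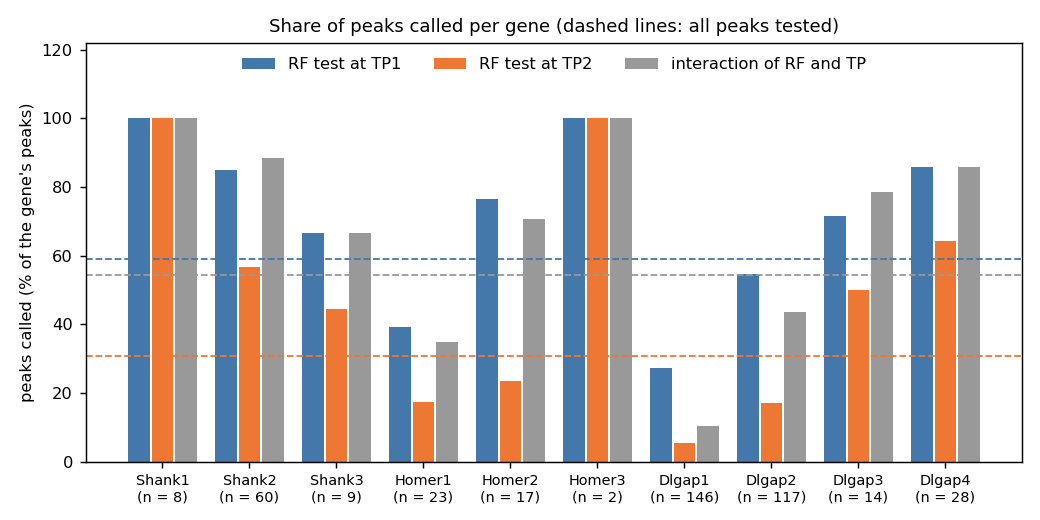
Share of each gene's peaks (percent, vertical axis) called by the RF test at TP1, at TP2 and by the interaction of RF and TP, with the number of peaks under each gene and dashed lines for all peaks tested. Shank1 and Homer3 reach 100% in all 3 tests, and Dlgap1 stays lowest with 27.4%, 5.48% and 10.3%, from all libraries.

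The share of peaks that depended on the RF differed from gene to gene. All 8 Shank1 peaks depended on the RF at TP1 and at TP2, and so did both Homer3 peaks. Shank2 had 51 of 60 at TP1 and 34 at TP2, and Dlgap4, which encodes the broadly expressed SAPAP4, had 24 of 28 and 18. Without the 3 libraries that stood apart the counts at TP2 were 42 in Shank2 and 20 in Dlgap4. At the other end Dlgap1 had 40 of 146 at TP1 and 8 at TP2 (32 without the 3 libraries that stood apart). Peaks outside each gene but within 1 Mb of it had shares near those of some genes and not of others. At TP1 these neighbours were called in 97.6% around Shank1, 86.4% around Shank2, 64.1% around Shank3 (66.7% in the gene), 38.3% around Homer1 (39.1% in the gene) and 77.9% around Homer2 (76.5% in the gene). Dlgap1 and Dlgap2 had lower shares than their neighbours, with 27.4% against 52.8% and 54.7% against 82.2%. Homer3 and Dlgap4 had higher shares, with 100% against 68.3% and 85.7% against 69.8%, and Homer2 fell below its neighbours at TP2 with 23.5% against 49.7%. Without the 3 libraries that stood apart 10 of the 17 Homer2 peaks were called at TP2, and the neighbours were not recounted. The neighbours at TP2 were called in 88.7% around Shank1 (100% in the gene) and 49.3% around Shank2 (56.7% in the gene). DARs at TP1 were less frequent in Shank2 (45%) than around it (72.1%), and in Homer1 they were more frequent (34.8% against 18.9%). Shank1, Shank2 and Homer2 lie on chromosome 7, where 74.9% of all peaks depended on the RF at TP1 and 49.3% at TP2. The 85 member peaks on chromosome 7 included 72 called at TP1 and 46 at TP2, and the 339 elsewhere 155 and 63.

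Homer1 had the promoter with the widest spread between RFs at TP1. Its peak read 81.9, 103, 95.1, 96.5 and 107 CPM in RF1 replicates 1 to 5, a mean of 96.7 ± 9.56 (SD, n = 5). In RF4 it read 45.7, 46.5, 45.9, 46.4 and 45.2 CPM, a mean of 45.9 ± 0.526 (SD, n = 4, because 2 of these libraries agreed within sampling noise and counted as 1 sample). All 5 RF1 libraries lay above every other library of TP1 and all 5 RF4 libraries below. Between them, RF2 read 61.8, 69.1, 73.3, 68 and 73.3 CPM. RF3 gave 58, 65.4, 68.3, 64.3 and 65.1 CPM, and RF5 gave 61.1, 65.9, 68, 68.7 and 64.5 CPM. These 3 RFs overlapped. The mean of RF1 was 2.11-fold that of RF4, and the log2 fold change against the mean over the other RFs was 0.67 in RF1 (SE 0.04, FDR 5.58e-20 by edgeR's quasi-likelihood test) and -0.66 in RF4 (SE 0.05, FDR 9.26e-17). A loess offset that follows peak strength brought these to 0.47 and -0.23, with both still called. Across the 5 RFs the fitted range was 1.07 on the log2 scale, larger than that of 98.3% of the 12949 peaks that hold a start.

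At TP2 the RFs lay closer together at the Homer1 promoter. RF1 read 53.8, 54.7, 69.5, 62.9 and 72.6 CPM, and its replicates 3 and 5 were among the libraries that stood apart. RF2 read 60.6, 65.6, 64.9, 65 and 69.5 CPM and RF3 59.1, 58.6, 59.6, 55.3 and 57.9 CPM. RF4 read 58.2, 54.8, 55.2, 53.6 and 52.4 CPM and RF5 66.2, 72.2, 73.2, 69.2 and 69.2 CPM. The RF4 libraries were mostly low and the RF5 libraries mostly high, and with all libraries no RF lay apart from the others. Without the 3 libraries that stood apart, all 5 RF5 libraries lay above the other RFs, whose highest value was then 65.6 CPM in RF2. The highest mean was 1.26-fold the lowest, and the fitted log2 range of 0.35 exceeded that of 42.9% of start peaks. RF4 was called lower (-0.22, FDR 4.58e-04) and RF5 higher (0.22, FDR 4.31e-04) by edgeR, but the RF4 call was lost with the mean of the 1 Mb region taken out, and the RF5 call was lost with that, with the loess offset, without replicate 2 and without replicate 4. The difference between TPs was itself tested as the interaction of RF and TP and had an FDR of 2.36e-15.

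**Figure D2:**
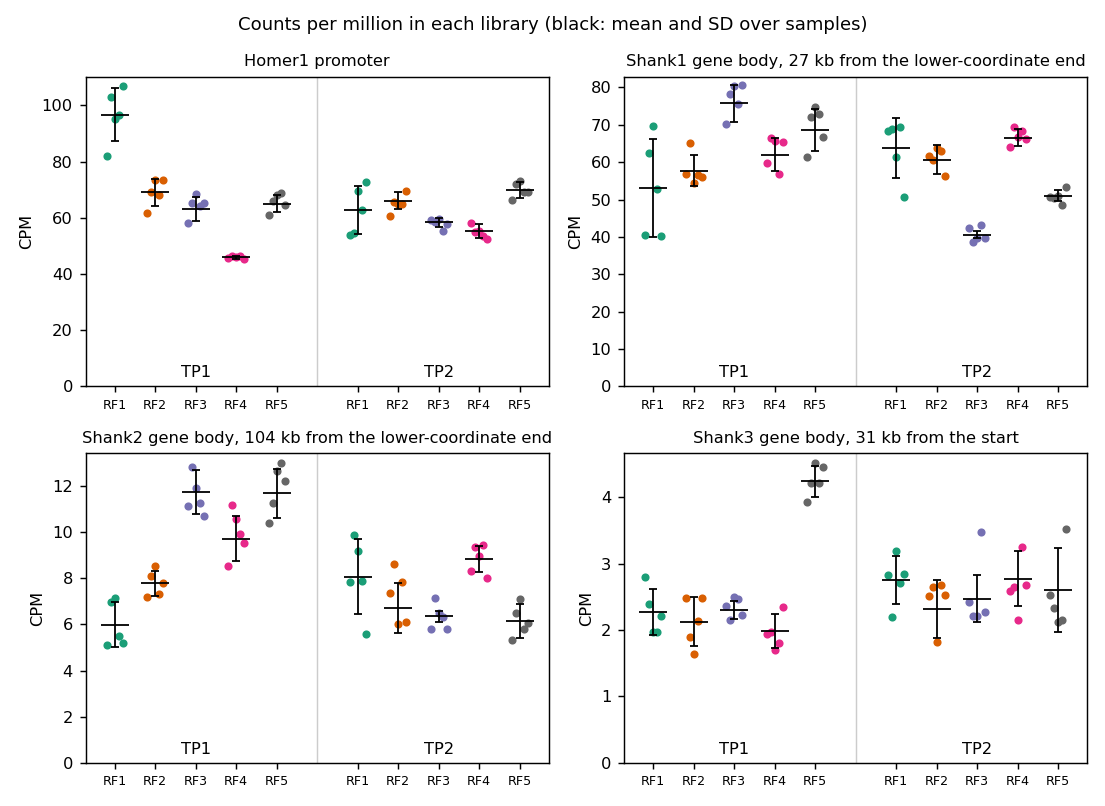
CPM (library-size scaled counts, vertical axis from 0) in each of the 50 libraries for 4 member peaks, by RF within TP1 (left) and TP2 (right) of each panel, with the mean and SD over samples in black. RF1 lies highest and RF4 lowest at the Homer1 promoter at TP1, RF3 lies lowest at the Shank1 peak at TP2, RF1 lowest at the Shank2 peak at TP1 and RF5 highest at the Shank3 peak at TP1.

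The promoters of the family were low in RF4 at TP1 and in RF3 at TP2, as start peaks were at large, on the scale of 1 factor per library. Each gene's main peak at a start, or for Shank1, Shank2 and Dlgap2 the peak at the gene end with more counts, was taken. Of these 10 peaks 9 depended on the RF at TP1 (86.9% of all start peaks did) and 10 at TP2 (66.3%). In RF4 at TP1 all 10 had a log2 fold change below 0 and 7 were called lower at any size, with a median of -0.24, against 58.5% of all start peaks called lower and the same median of -0.24. With the loess offset 6 of the 10 lay above 0, and 2 were called lower and 2 higher. The count of 7 was 4 with libraries within sampling noise summed, and 4 to 9 with 1 replicate left out (4 without replicate 4). The Dlgap4 start read 43.2, 44.4, 46.7, 44.8 and 48.7 CPM in RF4 at TP1, below all 20 libraries of the other RFs (53.9 to 79.2 CPM). The Dlgap1 promoter, at the start of the longest member gene, read 16.3 to 18.7 CPM in RF4 and 21.4 to 29.7 CPM in the other RFs, again without overlap. In RF3 at TP2 all 10 peaks lay below 0 and 9 were called lower, with a median of -0.26, against 41% and a median of -0.17 over start peaks. The count was also 9 without the 3 libraries that stood apart, 0 with the loess offset (9 of 10 below 0, and 1 called higher) and 3 with the 1 Mb region mean taken out. It was 6 with libraries within sampling noise summed, and 7 to 9 with 1 replicate left out. The Shank3 promoter read 48, 41.9, 43.1, 47.8 and 46.9 CPM in RF3 at TP2. All 5 lay below the other 20 libraries, which read 49.6 to 63.5 CPM.

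The summed promoter level of the 8 neuronal markers was also low in RF4 at TP1 and in RF3 at TP2, as start peaks were at large. It was 195.6 to 213.9 CPM in RF4 at TP1 against 242.8 to 297.7 CPM in the other RFs, and 205.8 to 218.5 CPM in RF3 at TP2 against 228.2 to 269.7 CPM. The summed level of the glial and endothelial markers was 58 to 77.5 CPM over all RFs at TP1 and 57.5 to 77.3 CPM at TP2. At TP1 it was 69.7 to 77.5 CPM in RF3, 61.2 to 64.6 CPM in RF4 and 58 to 64 CPM in RF5. RF1 and RF2 lay at 63.1 to 70.5 CPM. In RF3 at TP2 it was 61.6 to 67.2 CPM. Among the single lists, Prox1, a marker of dentate granule cells, read 7.13 to 8.29 CPM in RF4 at TP1 against 10.7 to 14.5 CPM in the other RFs. The oligodendrocyte markers summed to 21.2 to 24.2 CPM in RF3 at TP1 against 15.8 to 19.8 CPM in the other RFs. The astrocyte markers summed to 17.2 to 18.7 CPM in RF4 and 15.8 to 17.8 CPM in RF5 at TP1, against 21.3 to 28.5 CPM elsewhere. The microglial markers summed to 25.2 to 29.2 CPM in RF4 at TP1 and overlapped those of the other RFs. Single marker peaks had a mean of 8.14 to 51 CPM in the neuronal list and 1.4 to 12.8 CPM in the glial and endothelial lists. No loess offset was applied to the sums. The part of any of these levels in the differences between RFs was not tested.

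**Figure D3:**
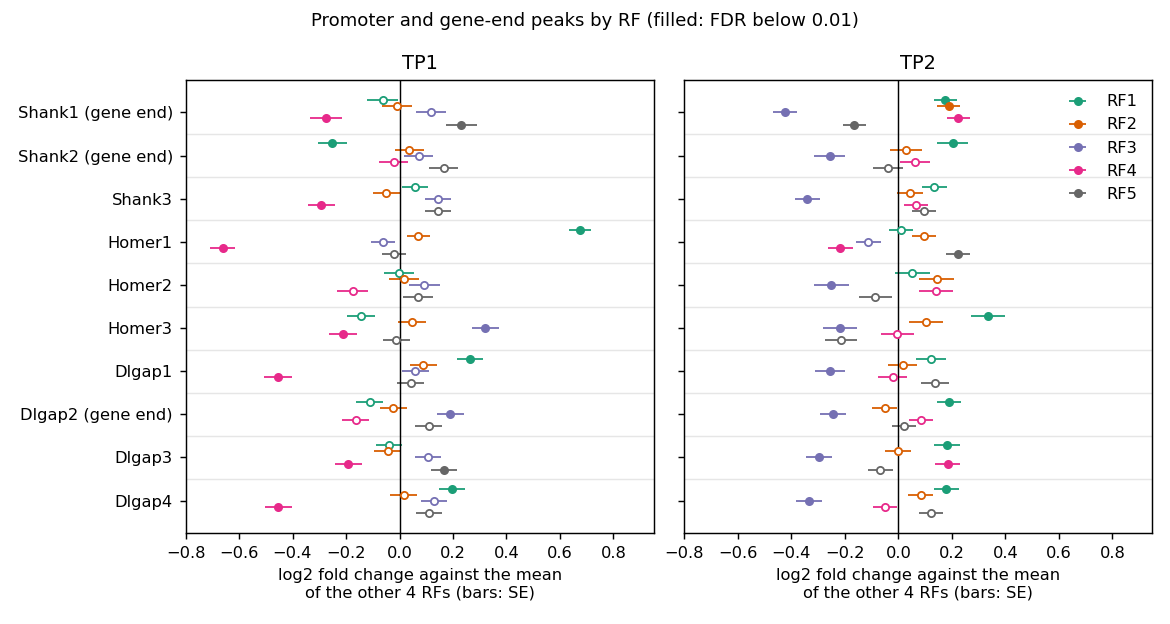
Log2 fold change (horizontal axis) of each RF against the mean over the other 4 RFs at the 10 promoter or gene-end peaks, at TP1 and TP2, with bars for the SE and filled symbols for an FDR below 0.01 in edgeR. Homer1 spans the widest range at TP1, RF4 lies below 0 for all 10 at TP1 and RF3 for all 10 at TP2, and a loess offset lifts 6 of the RF4 values and 1 of the RF3 values above 0.

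For RF1 against the other RFs at TP1, the lower member DARs lay in Shank2 and Homer2 and the higher ones in Homer1. The low values of Shank2 and Homer2 were no DARs once the 1 Mb region mean was taken out. RF1 set against the other RFs gave 17 DARs among the 424 member peaks (4.01%), a smaller share than that of all peaks in either direction alone. Of the 17, 15 were lower (13 in Shank2 and 2 in Homer2, against 5.96% of all peaks) and 2 higher (both in Homer1, against 9%). The lower count was 23 without replicate 2 and 28 without replicate 3, and the higher count was 6 without replicate 1, 3 without replicate 2 and 4 without replicate 4. With the 1 Mb region mean taken out 1 higher and no lower DAR was left. The clearest Shank2 peak, chr7:144080798-144082861, 104 kb from the lower-coordinate end of the gene, read 5.13, 6.96, 7.16, 5.51 and 5.21 CPM in RF1. All 5 lay below RF2 (7.19, 8.1, 8.51, 7.34 and 7.81 CPM) and further below RF3, RF4 and RF5, which read 8.56 to 13 CPM. Its log2 fold change in RF1 was -0.76 (SE 0.06, FDR 1.68e-15 by edgeR), and -0.39 with the 1 Mb region mean taken out, where it was still called. At TP2 the RF1 libraries (5.6 to 9.87 CPM) overlapped those of the other RFs.

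A single short Shank3 peak was high in RF5 at TP1, the group through which it had entered the peak table. Shank3 encodes the scaffold whose human gene is deleted in most cases of Phelan-McDermid syndrome. The peak, chr15:89530467-89530758, lay 31 kb from the start, was only 292 bases wide and was found in 1 of the 10 groups. All 5 RF5 libraries of TP1 had a peak of their own there, against at most 2 libraries in any other group. It read 3.92, 4.21, 4.52, 4.21 and 4.46 CPM in RF5, above all other libraries of TP1 (1.65 to 2.8 CPM). Since the peak was listed because of this group, the difference is given as a description with no test. At TP2 the RF test gave no call (FDR 0.972 by edgeR). In the gene body of Homer2, whose product also tethers metabotropic glutamate receptors, a peak at chr7:81622296-81623776 was low in RF5 at TP2 with 2.07, 1.93, 1.91, 2.18 and 1.74 CPM. Most of the other libraries lay above these values (2 to 4.41 CPM), and the log2 fold change was -0.69 (SE 0.13, FDR 1.77e-04 by edgeR, against 0.688% of all peaks as lower DARs). With the 1 Mb region mean taken out the RF test called 0 of the 17 Homer2 peaks at TP2 and this peak was no DAR, and the RF5 call was lost with libraries within sampling noise summed.

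Between RF1 and RF3 most member DARs were lower in RF1 at TP1 and higher in RF1 at TP2, and few were left with the regional mean taken out. At TP1, RF1 against RF3 gave 45 member DARs (10.6%, below the 20.1% of all peaks), 10 higher and 35 lower in RF1. The higher ones were 8 in Homer1 and 2 in Dlgap1. The lower ones included 21 in Shank2, 6 in Dlgap4, 3 in Shank1 and 3 in Homer2. At TP2 there were 29 (6.84%, below the 10.1% of all peaks), 27 higher and 2 lower in RF1, and the 2 lower ones were in Homer1. Without the 3 libraries that stood apart there were 60 higher and 3 lower, and 48 and 3 without RF1 replicate 5 alone. There were 14 higher and 0 lower without replicate 1 of every RF, and 14 and 1 without replicate 2. RF3 against RF4 at TP2 gave 24 DARs (5.66%, below the 11.1% of all peaks), 23 of them lower in RF3. Over all peaks the DARs of these pairs were not split by direction, so the directions have no background here. Taking out the 1 Mb region mean left 2 higher and 2 lower DARs of RF1 against RF3 at TP1 and none at TP2.

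Along Shank2, all 60 peaks were below 0 for RF1 against RF3 at TP1 (median log2 fold change -0.41) and all 60 above 0 at TP2 (median 0.35), while the 140 neighbours within 1 Mb had medians of -0.53 and 0.35. With the 1 Mb region mean taken out, to which the gene's own peaks contribute, the Shank2 medians were 0.03 and 0.00. The 21 DARs of TP1 and 12 of TP2 then became 2 and 0. At TP2 the count was 20 without the 3 libraries that stood apart and 5 without replicate 1 or replicate 2. Shank1 did the same, with all 8 peaks below 0 at TP1 (median -0.43, 3 DARs) and all 8 above 0 at TP2 (median 0.61, 7 DARs), and its medians with the regional mean taken out were 0.12 and 0.02 with no DAR. Homer1 was the mirror image. Of its 23 peaks 21 lay above 0 at TP1 (median 0.35, 8 DARs) and 18 below 0 at TP2 (median -0.20, 2 DARs), and with the regional mean taken out the medians were 0.18 and -0.04 with 1 DAR at TP1 and none at TP2. Without replicate 1 no Homer1 DAR was left at TP2.

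**Figure D4:**
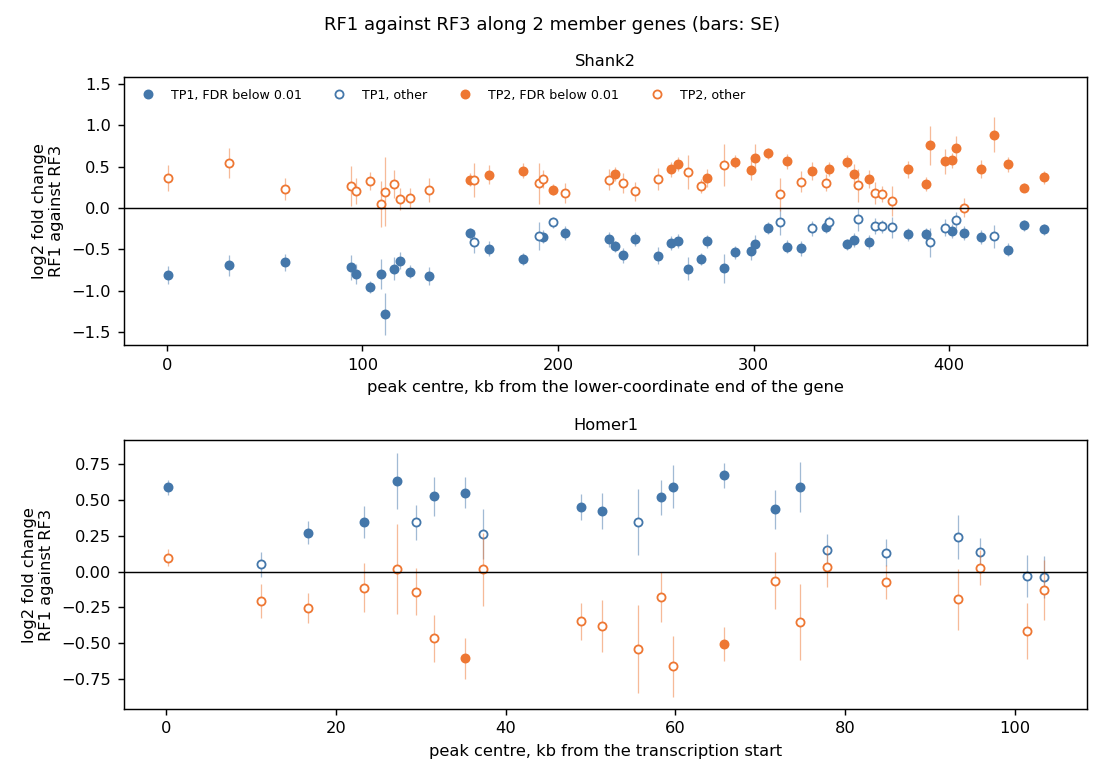
Log2 fold change of RF1 against RF3 (vertical axis, bars for the SE) at each peak of Shank2 and Homer1 by distance of the peak centre in kb from the lower-coordinate end (Shank2) or the start (Homer1), for TP1 and TP2. Shank2 lies below 0 at TP1 and above 0 at TP2 along its whole length and Homer1 mostly the other way, and with the 1 Mb region mean (own peaks included) taken out the Shank2 medians are 0.03 and 0.00.

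At the Shank1 peak chr7:44333925-44338043, 27 kb from the lower-coordinate end, the turn can be followed library by library. At TP1, RF1 read 40.6, 62.5, 69.8, 52.9 and 40.2 CPM and RF3 70.1, 78.4, 80.3, 75.6 and 80.5 CPM, with every RF1 library below every RF3 library. At TP2, RF1 read 68.4, 68.9, 61.5, 69.4 and 50.7 CPM and RF3 42.5, 38.7, 39.7, 43.1 and 39.8 CPM. Here the 5 RF3 libraries lay below all other 20 of TP2. The log2 fold change of RF1 against RF3 was -0.55 (SE 0.07) and then 0.65 (SE 0.06), and the interaction had an FDR of 2.47e-16 by edgeR.

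In all, 10 member peaks were DARs of the same pair at both TPs, and all 10 turned sign. No member peak was a DAR of the same pair and direction at both TPs. Among all peaks 5.79% were DARs of a pair in opposite directions and 0.615% in the same direction. The peaks were 4 of Shank1, 2 of Shank2, 2 of Dlgap4 and 2 of Homer1. In 9 of them the pair was RF1 and RF3, and in 1 Shank1 peak (chr7:44342996-44343906, named after its values were seen) RF1 and RF5. The log2 fold changes ran from -0.67 to -0.51 at TP1 and from 0.52 to 0.69 at TP2 in the Shank1, Shank2 and Dlgap4 peaks. The 2 Homer1 peaks had 0.67 and 0.55 at TP1 and -0.51 and -0.61 at TP2. Leaving out the 3 libraries that stood apart left all 10 as DARs at both TPs, and the loess offset left 5. Leaving out replicate 1, 2 or 5 of every RF left 4 in each case, and leaving out replicate 4 left 6. Summing libraries within sampling noise also left 6. Only 6 of the 10 peaks were found in all 10 groups. With the fit kept to such peaks all 6 turned sign and 3 were DARs at both TPs. With the 1 Mb region mean taken out none remained a DAR at both TPs, and 7 of 10 still had opposite signs.

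The interaction test, which asks whether RF differences themselves differed between TPs, called 190 of 424 member peaks (44.8%), against 54.4% of all peaks. Without the 3 libraries that stood apart it called 213 (50.2%, against 61.1%). Per the study's methods the mice of TP2 were littermates and former cage mates of those of TP1, and the model took all mice as independent because the labels do not tie them. With all libraries the interaction test called 67 of 77 Shank peaks (87%), 22 of 42 Homer peaks and 101 of 305 SAPAP peaks. On chromosome 7, which holds Shank1 and Shank2, 71.4% of all peaks were called. The neighbours within 1 Mb were called in 98.8% around Shank1 and 79.3% around Shank2. All 10 promoter or gene-end peaks were called, as were 82.3% of all start peaks. With the 1 Mb region mean (own peaks included) taken out, 16 Shank peaks were called. The share was then 16.5% of member peaks, against 25.3% of all peaks.

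Median changes over Shank2, Homer2 and Shank3 lay nearer to those of peaks within 1 Mb than the median over Homer1 did. For RF1 against the other RFs at TP1, the median log2 fold change was -0.34 over Shank2 peaks, -0.42 over the neighbours within 1 Mb and -0.33 over all of chromosome 7. Homer2 had -0.34 with neighbours at -0.35. Homer1 stood above its surroundings, with 0.27 over the gene, 0.04 over the neighbours and 0.13 over chromosome 13. For RF3 at TP2, Shank1 had -0.45 with neighbours at -0.41 and chromosome 7 at -0.24, and Shank3 had -0.13 with neighbours also at -0.13 while chromosome 15 was at 0.01. The differences between a gene and its neighbours were not tested.

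**Figure D5:**
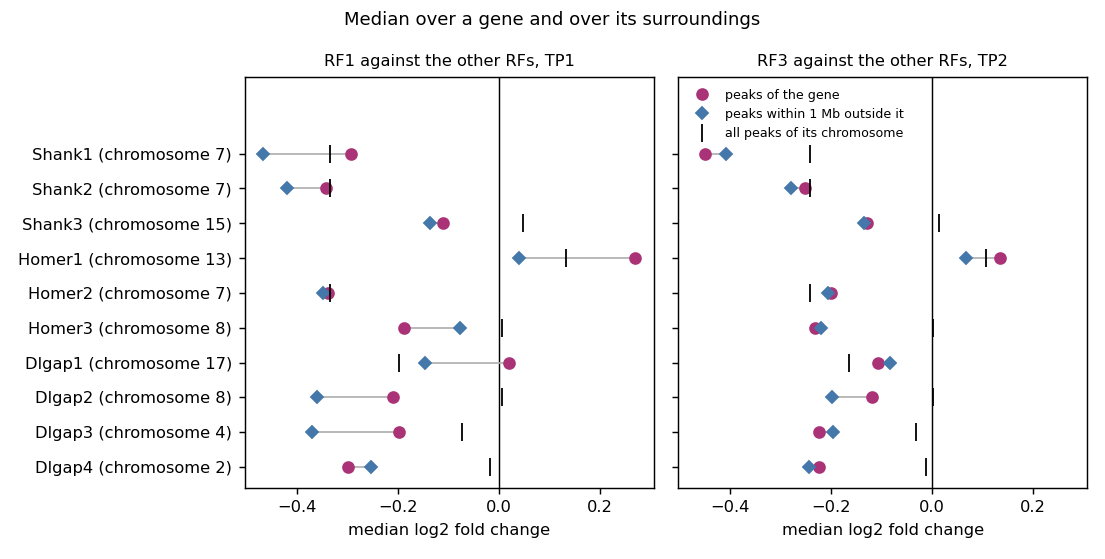
Median log2 fold change (horizontal axis) over the peaks of each gene, over peaks within 1 Mb outside it and over its chromosome, for RF1 against the other RFs at TP1 and for RF3 against the other RFs at TP2. Gene and neighbours lie close together for Shank2, Shank3 and Homer2 in both panels, and Homer1 lies to the right of its neighbours at TP1 (0.27 and 0.04).

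For RF1 against RF3 the medians of Dlgap4 and Dlgap2 turned sign between TPs and that of Dlgap1 did not. Differences between the SAPAP genes were not tested. Dlgap4 followed Shank1 and Shank2, with 26 of 28 peaks below 0 for RF1 against RF3 at TP1 (median -0.36, 6 DARs) and 27 of 28 above 0 at TP2 (median 0.35, 3 DARs), and medians of -0.04 and 0.05 with the regional mean taken out. Dlgap2 had 108 of 117 peaks below 0 at TP1 (median -0.20, 2 DARs) and 103 above 0 at TP2 (median 0.19, 2 DARs, 10 without the 3 libraries that stood apart). The neighbours of Dlgap2 within 1 Mb had medians of -0.42 and 0.25. Dlgap1 was close to 0 at TP1 (median 0.06, 99 of 146 above 0, 2 DARs) and above 0 at TP2 (median 0.15, 116 of 146, 2 DARs, 8 without the 3 libraries that stood apart), with medians of -0.10 and 0.07 over its neighbours. Dlgap1 (146 peaks) held more peaks than its neighbourhood (127), so values with the regional mean taken out are not given for it. Dlgap3, whose loss in mice leads to compulsive grooming, had 1 DAR between any pair of RFs at each TP among its 14 peaks, although 10 and 7 of them depended on the RF. The Dlgap3 medians against the other RFs were -0.20 in RF1 and 0.10 in RF3 at TP1, and 0.15 and -0.22 at TP2. RF1 thus turned from below to above RF3, as in Dlgap4 and Dlgap2.

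The interaction partners of the scaffolds were read from a list of 19 genes with 550 peaks. It held the Homer partners Grm5, Itpr1, Ryr2, Trpc1 and Dnm3, 8 Shank partners such as the actin regulators Cttn and Abi1, and 6 SAPAP partners such as Dlg4, which encodes PSD-95. Of their main promoter or gene-end peaks 18 of 19 depended on the RF at TP1 (86.9% of all start peaks did) and 12 of 19 at TP2 (66.3%). RF4 was called lower in 16 of 19 at TP1 (58.5% of all start peaks) and RF3 in 12 of 19 at TP2 (41%), whereas with the loess offset both counts were 7, and 7 and 6 of the 19 values lay above 0. Among the Homer partners RF1 was called higher at TP1 in 4 of 5 (37.8% of all start peaks were) and RF4 lower in 5 of 5, against 58.5% (3 of 5 with the loess offset, with all 5 below 0). The difference from start peaks at large was not tested. The widest range at TP1 was that of Magi2, a scaffold that binds SAPAP proteins, with log2 fold changes of 0.67 in RF1 and -0.60 in RF4. At TP2 it was Dlg4, with -0.53 in RF3 and 0.26 in RF1, of which the RF1 value was not called (FDR 0.0721 by edgeR). Over all 550 peaks 248 (45.1%) depended on the RF at TP1 and 114 (20.7%) at TP2, which was below the 59.1% and 30.8% of all peaks.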

How the data were processed

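The authors aligned ATAC-seq reads with Bowtie2 to GRCm38, marked duplicates with Picard 1.140, called peaks per library with MACS2 2.1.4, merged over groups the peaks seen in 3 or more libraries of the same group, and deposited raw counts per merged peak. A table labelled as normalized counts, byte for byte equal to the raw one, was not used. The deposited merged list gives a score, the number of groups (1 to 10) with the peak, and the authors' peak lists per library give a −log10 p-value or q-value. Both served only to describe peaks. The authors tested RFs with DESeq2.

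For each TP, a model with RF and replicate number as terms was fitted to the counts by edgeR 4.0.16 (R 4.3.3), with filterByExpr, TMM factors and the robust quasi-likelihood F-test, and a model over both TPs gave the interaction. P-values were adjusted by Benjamini and Hochberg over all peaks. The labels describe sorting batches with 1 library per RF, and the replicate number stood for the batch. The labels do not say that this number is the batch. Libraries with the same number had deviations from their group means that correlated with a mean r of 0.0609 at TP1 (above 0.1 in 13 of 50 pairs) and 0.0012 at TP2 (1 of 50), so the numbers were not taken as pairs of mice. CPM are counts scaled by TMM library sizes. Libraries whose counts agreed within sampling noise were counted as 1 sample in means and SDs, which left 3 to 5 samples per group, and tests used all libraries. Such agreement was found in 7 of 50 pairs within RFs at TP1 and 13 of 50 at TP2, so p-values may partly measure technical spread. It was also found in 7 pairs between RFs at TP2, all of which held RF1 replicate 3, RF1 replicate 5 or RF2 replicate 5.

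On simulated counts of 20000 peaks, 90 of 100 peaks changed by a log2 of 0.7 and 97 of 100 changed by 1 were found at TP1, and 72 and 96 at TP2, with 2 false calls of 19800 at each. The simulated libraries were independent and changed in RF4 alone, with no regional shift and no trend with peak strength. The simulation therefore checks the fit and does not measure the rate of false calls in these data. Named peaks were each gene's promoter or gene-end peak, its peak with the smallest p in each of the 3 tests, the 5 called peaks with the largest range of fitted RF values at each TP, and 5 peaks that were DARs of 1 pair at both TPs. The member genes, lists and tests were chosen with earlier results of these data known. A gene of the partner list is not reported here and was left out of its counts. Alternatives were DESeq2 1.42.0 (test and size factors), no filter, a loess offset, 1 Mb regional offsets, no replicate block, an absolute log2 fold change of 1, peaks of all 10 groups, summed libraries and libraries left out. limma 3.58.1, the package data.table (version 1.17.8), Python 3.11.15, pandas 2.3.3, numpy 2.4.6 and matplotlib 3.10.9 were also used.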

Additional observations from a re-analysis of the deposited data

Results flagged for a closer look

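In 240 groups (24 named peaks, 5 RFs, 2 TPs) a single library stood far from the others of its group in 17 cases, and chance would flag about 1 group in 20. In the Shank genes these were, in CPM, RF5 replicate 1 at TP1 with 73.3 at the Shank1 gene end (83.5 to 87.2 in the others), RF2 replicate 2 at TP1 with 65.1 at the Shank1 peak at 44333925 (54.5 to 56.7), RF2 replicate 5 at TP2 with 19.4 at that at 44320231 (26.4 to 27.1), RF4 replicate 4 at TP1 with 4.49 at the Shank2 peak at 144093727 (3.8 to 3.89) and with 16.9 at the Shank2 gene end (18.7 to 19.4), RF3 replicate 1 at TP2 with 13.1 at 144267271 (11.8 to 12.2) and RF5 replicate 1 at TP1 with 15.7 at 144406603 (17.6 to 18.4). At the Shank3 peak at 89530467 they were RF2 replicate 3 with 1.82 (2.51 to 2.68) and RF3 replicate 4 with 3.48 (2.22 to 2.42), both at TP2. At the Homer3 promoter RF1 replicate 5 read 18.6 (27.4 to 30.5) and RF2 replicate 5 read 17.9 (24.1 to 26.3) at TP2, and both libraries also stood apart over all peaks. In the SAPAP genes they were, at TP2, RF1 replicate 4 with 43.7 (38.5 to 39.7) and RF5 replicate 4 with 38.4 (35.6 to 36.2) at the Dlgap2 gene end, RF5 replicate 5 with 36.2 at the Dlgap3 promoter (32.4 to 33.2) and RF1 replicate 3 with 60.9 at the Dlgap4 start (46.4 to 49.6). At TP1 they were RF5 replicate 1 with 53.9 at the Dlgap4 start (63 to 65.1) and RF1 replicate 1 with 1.04 at the Dlgap3 peak at 127223700 (1.55 to 1.64).

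RF differences themselves differed between TP1 and TP2 by the interaction test of edgeR at 23 named peaks. The smallest FDRs were 2.47e-16 at the Shank1 peak at 44333925, 2.36e-15 at the Homer1 promoter, 1.38e-13 at Shank2 144267271 and 1.64e-12 at the Shank1 gene end. Shank2 gave 2.07e-10 at 144406603, 6.74e-08 at 144009078, 6.06e-07 at its gene end, 2.11e-05 at 144400527, 0.000408 at 144071919, 0.000685 at 144093727 and 0.00602 at 144089385. Shank1 44320231 had an FDR of 5.39e-10, the Shank3 promoter 9.91e-09 and Shank3 89530467 6.77e-07. The Homer3 promoter had an FDR of 1.77e-09, Homer2 81622296 1.5e-07 and the Homer2 promoter 0.00018. Among SAPAP genes the FDR was 4.2e-10 at Dlgap4 156685229, 2.08e-09 at the Dlgap3 promoter, 9.1e-09 at the Dlgap4 start, 2.09e-08 at the Dlgap2 gene end, 6.31e-07 at the Dlgap1 promoter and 0.00023 at Dlgap1 70758566. The Shank2 peaks at 144089385 and 144400527, Shank3 89530467 and Dlgap1 70758566 were found in 1 of 10 groups and entered the table through it, so their FDRs support nothing.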

How the results depend on the processing

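The counts depended on the size threshold, on the regional offset and on single libraries. With the 1 Mb region mean taken out there were 28 DARs at TP1 (82 before), 5 at TP2 (49), 13 RF-dependent peaks at TP2 (109) and 70 interaction calls (190). The interaction calls were then 16.5% of member peaks, against 25.3% of all peaks. Among the 159 peaks of all 10 groups the counts were 118 and 56 RF-dependent peaks at TP1 and TP2, 26 and 10 DARs and 98 interaction calls, with fewer peaks tested. With libraries within sampling noise summed and no replicate block 147 and 53 peaks depended on the RF. The fit with no replicate block alone gave 201 and 110 RF-dependent peaks, 80 and 51 DARs and 187 interaction calls. An absolute log2 fold change of 1 left 5 and 1 DARs. Without RF1 replicates 3 and 5 and RF2 replicate 5 there were 175 RF-dependent peaks and 97 DARs at TP2, and 73 DARs without RF1 replicate 5 alone. Leaving out 1 replicate gave 157 to 213 RF-dependent peaks and 62 to 98 DARs at TP1, 57 to 139 and 33 to 73 at TP2, with 57 without replicate 2 and 65 without replicate 1, and 145 to 201 interaction calls. The DESeq2 test gave 235 and 114 RF-dependent peaks and 82 and 50 DARs. Of 1652 recomputed values of single peaks 1313 kept their call and direction, 315 lost the call and 24 turned sign. The loess offset turned RF4 at TP1 to 0.085 at Dlgap3 127167911, 0.11 at the Dlgap3 promoter, 0.056 at Dlgap4 156612848, 0.012 at the Homer3 promoter, 0.18 at the Shank1 gene end, 0.056 at Shank2 144283508 and 0.12 at the Shank3 promoter. The regional offset turned, at TP1, RF1 to 0.036 at Shank1 44320231, 0.061 at Shank1 44333925, 0.0024 at Shank2 144009078, 0.026 at Shank2 144400527 and 0.12 at the Shank2 gene end, and RF5 to -0.025 at the Shank1 gene end. At TP2 it turned RF4 to -0.0052 at the Dlgap3 promoter, -0.041 at Shank1 44320231, -0.084 at the Shank1 gene end and -0.025 at Shank2 144283508, RF1 to -0.0056 at Shank1 44320231, -0.061 at Shank1 44333925 and -0.12 at the Shank1 gene end, RF3 to 0.011 at the Homer3 promoter, 0.0015 at the Shank1 gene end and 0.011 at the Shank2 gene end, and RF5 to 0.11 at the Shank1 gene end. The causes were not tested, apart from the smaller number of peaks or libraries where an alternative removes them. Lower depth at TP2 limits the weakest peaks.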
